A study of Mus musculus with 12 samples.

Results

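The 10 receptors and bridging molecules that take up apoptotic cells and myelin debris, Axl, Mertk, Tyro3, Gas6, Pros1, Mfge8, Megf10, Msr1, Scarb1 and Lrp1, were followed in the adult mouse spinal cord before and 4 days after a demyelinating lesion. The genes were listed by their known role and found by the mouse symbol of the Ensembl identifier. All 10 were present among the 54838 genes listed, and all 10 passed the filter on low counts with 31109 genes in total. Control mice were Olig1+/+;Tet1fl/fl and Tet1 mutant mice were Olig1cre/+;Tet1fl/fl, so that both genotypes carried the floxed Tet1 alleles and differed in the cre inserted at Olig1. TET1 is an enzyme that oxidises methylated cytosine, and this cre is active in cells with a history of Olig1 expression, the oligodendrocyte lineage, and is not directed at microglia. At postnatal day 60 the ventrolateral white matter received lysolecithin (LPC), a detergent that strips myelin. The tissue was taken at 4 days post lesion (4dpl) or from the unlesioned side of the cord, and each of the 4 groups held 3 libraries. Cells were dissociated with papain and enriched on a Percoll gradient without sorting, so that the libraries hold several cell types, and fewer cells of a type and less RNA per cell cannot be told apart. The labels do not state which libraries came from separate mice, and the p-values measure the spread between these libraries.

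Dying cells expose phosphatidylserine on their surface, which phagocytes bind either directly or through a soluble bridge. GAS6 and protein S, encoded by Pros1, are vitamin K-dependent bridges between phosphatidylserine and the TAM receptor tyrosine kinases TYRO3, AXL and MERTK, whereas MFGE8 links it to integrins. MEGF10 is an engulfment receptor known from astrocytes, MSR1 and SCARB1 are scavenger receptors for modified lipoproteins and lipids, and LRP1 is a large endocytic receptor that also takes up myelin debris. Microglia, macrophages and astrocytes are the cells best known for these genes, with TYRO3 also known from neurons and oligodendrocytes.

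Total counts were between 34805086 and 67251544 per library. Oligodendrocyte and microglia markers were detected in all 12 libraries. Markers of neutrophils, a blood cell, were also abundant, with a summed level of 13903 to 75973 CPM (read counts scaled to a common, normalized library size). The control unlesioned, Tet1 mutant unlesioned and Tet1 mutant 4dpl libraries numbered 2 had the 3 highest values, 71152, 75973 and 69694 CPM, and each lesion count was therefore also computed without these 3 libraries. Tet1 itself did not separate the genotypes: it was at 11.7 to 18.3 CPM in the 6 control libraries and at 9.9 to 21.5 CPM in the 6 libraries labelled Tet1 mutant. The floxed allele loses exon 4 alone and in the Olig1 lineage alone, so that a count over the whole gene in mixed cells need not fall and checks the labels little. Olig1, the gene that carries the cre, was at 188 to 338 CPM in the control libraries and at 89 to 623 CPM in those labelled mutant. The genotype therefore rests on the labels wherever a direction between genotypes is given, and a mutant library means one so labelled.

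The 250 bases upstream of the RefSeq start of the 3 TAM receptors and their ligands are shown because cytosines followed by guanine, the usual substrate of TET1, can be seen in them directly (RefSeq, GRCm38.p6, written in the direction of transcription, with each CG in capitals). In the annotation of GRCm38 these genes span chr7:25757273-25788705 (Axl), chr2:128698956-128802894 (Mertk), chr2:119797733-119818104 (Tyro3), chr8:13465374-13494490 (Gas6) and chr16:62854307-62929346 (Pros1). The Tyro3 window lies within the annotated gene, downstream of its outermost start, and the other 4 lie outside the gene.
Axl (chr7:25788734-25788983, - strand): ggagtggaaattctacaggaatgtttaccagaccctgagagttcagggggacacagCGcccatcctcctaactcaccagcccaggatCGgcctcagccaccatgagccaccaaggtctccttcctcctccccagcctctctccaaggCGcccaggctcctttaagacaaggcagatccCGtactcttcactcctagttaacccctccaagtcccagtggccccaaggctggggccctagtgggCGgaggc
Mertk (chr2:128698665-128698914, + strand): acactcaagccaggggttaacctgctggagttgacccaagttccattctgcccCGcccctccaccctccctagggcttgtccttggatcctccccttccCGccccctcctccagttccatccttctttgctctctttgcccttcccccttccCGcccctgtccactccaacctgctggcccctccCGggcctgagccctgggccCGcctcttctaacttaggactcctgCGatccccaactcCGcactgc
Tyro3 (chr2:119799264-119799513, + strand): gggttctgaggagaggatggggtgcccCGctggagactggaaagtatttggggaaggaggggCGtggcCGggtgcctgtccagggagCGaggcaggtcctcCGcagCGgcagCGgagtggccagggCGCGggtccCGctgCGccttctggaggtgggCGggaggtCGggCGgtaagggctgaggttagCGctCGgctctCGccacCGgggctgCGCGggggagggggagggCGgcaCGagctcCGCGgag
Gas6 (chr8:13494536-13494785, - strand): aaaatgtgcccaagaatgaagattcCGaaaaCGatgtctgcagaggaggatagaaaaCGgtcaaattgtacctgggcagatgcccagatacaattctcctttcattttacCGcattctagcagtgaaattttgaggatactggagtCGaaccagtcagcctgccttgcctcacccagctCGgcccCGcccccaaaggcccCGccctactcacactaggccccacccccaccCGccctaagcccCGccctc
Pros1 (chr16:62854057-62854306, + strand): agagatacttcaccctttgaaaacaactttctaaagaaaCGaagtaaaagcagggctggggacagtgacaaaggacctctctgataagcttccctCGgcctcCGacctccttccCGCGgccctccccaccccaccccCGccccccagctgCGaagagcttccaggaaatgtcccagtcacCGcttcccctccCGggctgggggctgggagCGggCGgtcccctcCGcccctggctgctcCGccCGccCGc
Tyro3 held 24 CG dinucleotides in this window, Pros1 15, Gas6 10, Mertk 7 and Axl 5, against a median of 6 over 32851 promoters of the same length, and 88.0% of those promoters held fewer than Tyro3. Mfge8 (chr7:79133768-79149060) held 12 and Lrp1 (chr10:127538161-127621148) 13. Msr1 (chr8:39581685-39642673), Scarb1 (chr5:125277087-125341094) and Megf10 were not matched. Motifs were searched on both strands. GGGCGG occurred in all 7 matched windows and in 32.7% of all promoters. TTCNNNGAA occurred in Pros1 and Lrp1 and in 7.02% of all promoters, and CCGG in Tyro3, Mertk, Mfge8 and Pros1 and in 47.1%. CCAAT, held by 33.8% of all promoters, was in none of the 7 windows. The same was true of TATAAA, which was in 12.4% of promoters, of GGAAGT, which was in 19.7%, of CACGTG, which was in 6.02%, of TGANTCA, which was in 6.75%, and of TGACGTCA, which was in 1.55%. No methylation was measured in these libraries, and the windows are a description of sequence only.

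To define the response to demyelination, 4dpl libraries were compared with unlesioned libraries within each genotype and on average over both. In control cord 6 of the 10 genes rose, namely Mertk, Gas6, Pros1, Mfge8, Msr1 and Lrp1, whereas 5.12% of all genes tested were called higher (p-value under 0.01 and Benjamini-Hochberg adjusted p under 0.05, edgeR's quasi-likelihood test). The median log2 difference of the 10 genes was 1.70, and that of all genes tested was -0.36. The libraries of the control groups did not overlap for 9 genes, all but Tyro3, which were higher at 4dpl in every library, as were 16.5% of all genes. In the libraries labelled Tet1 mutant all 10 differences were above 0 with a median of 1.05, against -0.18 over all genes, but none was called, and 0.0225% of all genes were called higher. At an unadjusted p under 0.05 the mutant count was 7 of 10, where 15.9% of all genes were higher, and DESeq2 called 4 and limma with voom 8. In either direction those tools called 5295 and 6800 of the 31109 genes, against 42 with edgeR. The mutant libraries did not overlap for 5 genes, Gas6, Mfge8, Msr1, Scarb1 and Lrp1, against 18.8% of all genes higher. Averaged over genotypes 8 of the 10 genes rose, all but Tyro3 and Megf10, against 14.2% of all genes called higher.

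The count in control cord depended on single libraries. No gene of the 10 was called without control unlesioned library 2, control 4dpl library 1 or control 4dpl library 2, and 1, Gas6, was called without control unlesioned library 3. Over all genes tested 1, 4, 2 and 114 were called without these libraries, against 3150 with all of them. Without the 3 libraries of highest neutrophil marker level 0 were called in control, and 5 over all genes tested. The log2 differences were then 1.86 for Msr1, 2.08 for Gas6 and 1.64 for Lrp1. The mutant count was 9 without mutant unlesioned library 1, 5 without control unlesioned library 1 and 1 without control unlesioned library 2, where 3430, 4498 and 42 of all genes tested were called. The averaged count was 8 without each single library in turn, except for 10 without mutant unlesioned library 1. It was 6 without the 3 libraries together, Axl and Scarb1 then having adjusted p of 0.0536 and 0.0527. Over all genes tested the averaged comparison called 7690 to 12873 without single libraries and 4474 without the 3, against 10194 with all of them.

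**Figure D1:**
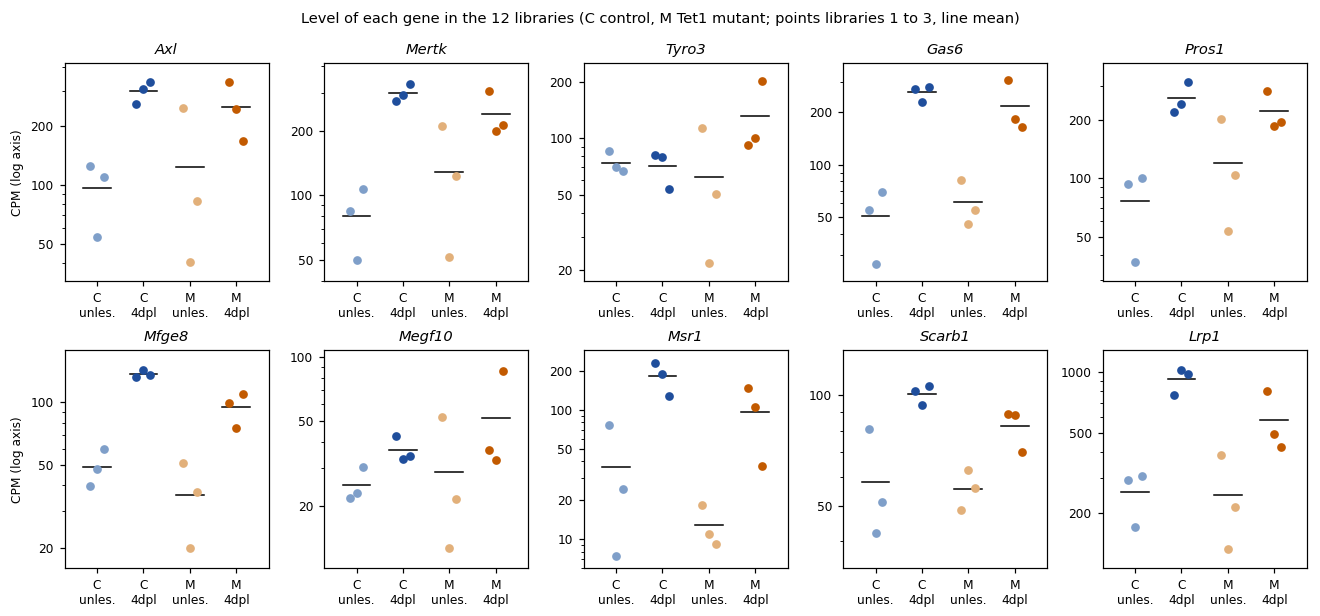
Level of each of the 10 genes in CPM on a log axis, with one point per library and a line at the mean of the 3 libraries in each group. In control cord every 4dpl point lies above every unlesioned point except for Tyro3, and the Tet1 mutant unlesioned points of Axl range from 40.1 to 245 CPM.

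Among the TAM receptors Mertk rose in control cord. Axl narrowly missed the threshold there and Tyro3 did not pass the test. Mertk, the receptor known for steady uptake of apoptotic cells, was at 84.5, 50.0 and 107 CPM in control unlesioned libraries 1 to 3 and at 273, 293 and 329 CPM at 4dpl. Libraries labelled Tet1 mutant had it at 210, 51.8 and 123 CPM unlesioned and at 304, 199 and 212 CPM at 4dpl. The control groups were well apart, while mutant unlesioned library 1 reached the level of 2 of the mutant 4dpl libraries. Its log2 difference was 1.89 ± 0.42 (SE, n = 3 per group, a 3.71-fold change, adjusted p = 0.0282 with edgeR) in control and 0.90 ± 0.41 (adjusted p = 0.141) in libraries labelled mutant.

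Axl, the receptor known as inducible under inflammation, was at 124, 54.1 and 109 CPM in control unlesioned libraries and at 259, 308 and 333 CPM at 4dpl. The libraries labelled mutant were at 245, 40.1 and 82.6 CPM unlesioned and at 334, 243 and 167 CPM at 4dpl. As for Mertk, mutant unlesioned library 1 lay within the range of the lesioned libraries. This gave a log2 difference of 1.65 ± 0.52 in control (edgeR adjusted p = 0.0556), 1.02 ± 0.51 in libraries labelled mutant (adjusted p = 0.173) and 1.33 ± 0.36 averaged over genotypes (adjusted p = 0.0134). In control 11 of 23 alternative settings called Axl, DESeq2 and limma with voom among them, and 12 did not.

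Tyro3 had the smallest averaged difference of the 10 genes. It was at 85.1, 70.6 and 66.8 CPM in control unlesioned libraries and at 81.4, 79.7 and 53.5 CPM at 4dpl, so that the control groups overlapped. Libraries labelled mutant had 114, 21.8 and 50.7 CPM unlesioned and 92.6, 100 and 200.5 CPM at 4dpl. The largest of these values, in mutant 4dpl library 3, came with the highest oligodendrocyte marker sum, 69260 CPM against 14630 to 34597 CPM in the other 11 libraries, and its part in the result was not tested. On the log2 scale the difference was -0.05 ± 0.46 in control, with a 95% interval of -1.03 to 0.92, and 1.08 ± 0.46 in libraries labelled mutant (edgeR adjusted p = 0.944 and 0.123). In control the value was 0.065 with no filter on low counts.

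Both bridging ligands of the TAM receptors rose in control cord. Gas6 was at 54.9, 26.5 and 69.2 CPM in control unlesioned libraries and at 274, 230 and 279 CPM at 4dpl. Under the mutant label it was at 81.4, 45.2 and 54.7 CPM unlesioned and at 308, 184 and 164 CPM at 4dpl. No library of either genotype overlapped between unlesioned and 4dpl. Its log2 difference was 2.38 ± 0.37 in control (5.19-fold, edgeR adjusted p = 0.0214), which ranked 18 by p-value among all 31109 genes, 1.86 ± 0.36 in libraries labelled mutant (adjusted p = 0.0522) and 2.12 ± 0.26 averaged (adjusted p = 0.0019). The antisense neighbour Tmem255b had 1.51% as many reads as Gas6.

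Pros1, known both as an anticoagulant cofactor and as a TAM ligand, was at 92.9, 36.8 and 99.9 CPM in control unlesioned libraries and at 221, 242 and 315 CPM at 4dpl. Levels under the mutant label were 203, 53.3 and 104 CPM unlesioned and 283, 186 and 195 CPM at 4dpl. The control groups did not overlap, and mutant unlesioned library 1 was above mutant 4dpl libraries 2 and 3. This gave a log2 difference of 1.76 ± 0.45 in control (3.39-fold, edgeR adjusted p = 0.0364), 0.88 ± 0.44 in libraries labelled mutant (adjusted p = 0.168) and 1.32 ± 0.31 averaged (adjusted p = 0.0077).

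Mfge8, the bridge to integrins, rose in control, and the engulfment receptor Megf10 did not pass the test. Mfge8 was at 39.6, 47.8 and 59.7 CPM in control unlesioned libraries and at 132, 143 and 136 CPM at 4dpl. Those labelled mutant had 51.0, 19.9 and 37.0 CPM unlesioned and 99.7, 75.8 and 110 CPM at 4dpl, and neither genotype overlapped between conditions. The log2 differences were close in size, 1.48 ± 0.30 in control (edgeR adjusted p = 0.0256) and 1.40 ± 0.30 in libraries labelled mutant (adjusted p = 0.0522), and 1.44 ± 0.21 averaged (adjusted p = 0.0022). Megf10 was at 21.7 to 30.2 CPM in control unlesioned and at 33.3 to 42.7 CPM in control 4dpl libraries. With the mutant label it was at 12.7 to 52.0 CPM unlesioned and at 33.0 to 86.1 CPM at 4dpl, with the top value in library 3, the one of highest oligodendrocyte marker sum. Its log2 difference was 0.56 ± 0.44 in control and 0.71 ± 0.31 averaged (edgeR adjusted p = 0.376 and 0.0835).

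The scavenger receptors differed in size of change. Msr1, a class A scavenger receptor of macrophages, was at 76.8, 7.5 and 24.3 CPM in control unlesioned libraries and at 231, 188 and 128 CPM at 4dpl. The libraries labelled mutant were at 18.5, 11.0 and 9.3 CPM unlesioned and at 146, 105 and 36.9 CPM at 4dpl. Neither genotype overlapped between conditions, although the 3 control unlesioned libraries alone spanned a wide range. On the log2 scale the difference was 2.33 ± 0.66 in control (5.04-fold with a 95% interval of 1.88 to 13.5, edgeR adjusted p = 0.0445), 2.89 ± 0.68 in libraries labelled mutant (adjusted p = 0.0538) and 2.61 ± 0.47 averaged (adjusted p = 0.0034). Leaving out single libraries moved the control difference of Msr1 between 1.86 and 3.55.

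Scarb1, a class B receptor for lipoproteins, was at 80.9, 42.2 and 51.1 CPM in control unlesioned libraries and at 103, 94.4 and 106 CPM at 4dpl. Under the mutant label it was at 48.6, 62.6 and 55.8 CPM unlesioned and at 89.1, 88.1 and 69.9 CPM at 4dpl. Every 4dpl library was above every unlesioned library of its genotype. Its log2 difference was 0.80 ± 0.25 in control (edgeR adjusted p = 0.0518), 0.57 ± 0.24 in libraries labelled mutant (adjusted p = 0.127) and 0.68 ± 0.17 averaged (adjusted p = 0.0099). In control 8 of 23 alternative settings called Scarb1, DESeq2 and limma with voom among them, and 15 did not.

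Lrp1 was at 291, 172 and 304 CPM in control unlesioned libraries and at 765, 1024 and 975 CPM at 4dpl. Levels under the mutant label were 389, 133 and 213 CPM unlesioned and 806, 495 and 425 CPM at 4dpl. Both genotypes were separated by condition, with mutant 4dpl library 3 closest to the unlesioned libraries. This gave a log2 difference of 1.85 ± 0.39 in control (3.60-fold, edgeR adjusted p = 0.0265), 1.23 ± 0.39 in libraries labelled mutant (adjusted p = 0.0697) and 1.54 ± 0.28 averaged (adjusted p = 0.0033).

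**Figure D2:**
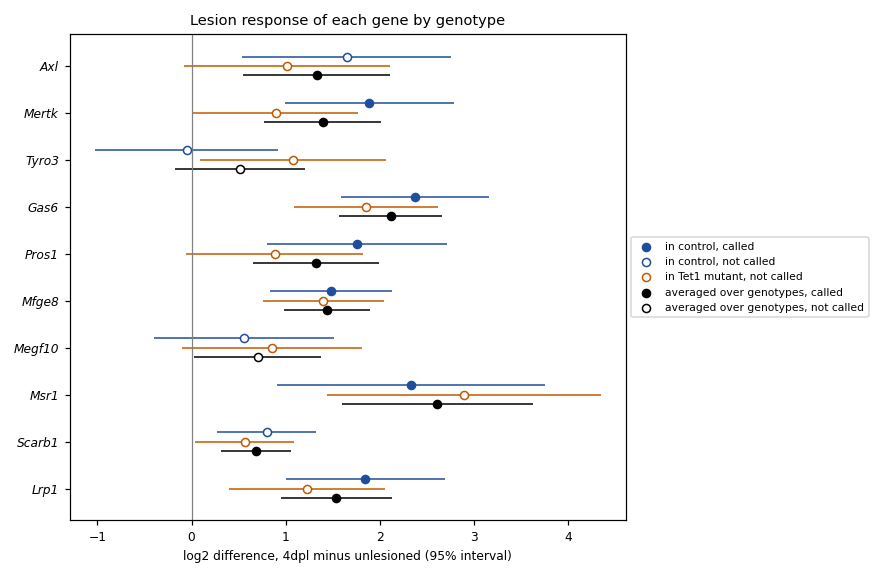
Log2 difference of each gene between 4dpl and unlesioned, with its 95% interval, in control libraries, in libraries labelled Tet1 mutant and averaged over both; filled points passed the test. All points lie above 0 except Tyro3 in control, and the averaged values run from 0.51 for Tyro3 to 2.61 for Msr1.

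Levels can be set against each other between genes only per exon length, and on that scale Gas6 was the most abundant of the 10 genes after lesion. In control unlesioned cord Gas6, Axl, Pros1 and Mertk had means of 19.7 ± 8.5, 19.0 ± 7.3, 18.7 ± 8.5 and 18.6 ± 6.6 CPM per kb (SD, n = 3), and these did not differ beyond their spread. At 4dpl in control Gas6 reached 102 ± 10.6 CPM per kb, followed by Mertk at 68.8 ± 6.6, Pros1 at 63.4 ± 12.1 and Axl at 59.6 ± 7.4, the last 3 within their spread of each other. Gas6 ranked 4 in mutant unlesioned cord, at 23.7 ± 7.4 CPM per kb, and again the first at 4dpl, at 85.8 ± 30.7, where its libraries overlapped with those of Mertk. Megf10 was the lowest in both control groups, at 3.23 ± 0.60 and 4.76 ± 0.67 CPM per kb. Msr1 stood at 5.70 ± 5.70 unlesioned and 28.7 ± 8.2 CPM per kb at 4dpl in control.

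The balance between partners was described by ratios within a library, on the same scale per exon length. The ratio of Gas6 to Pros1 was 0.95 to 1.16 in control unlesioned libraries and 1.42 to 1.99 at 4dpl, without overlap. In mutant libraries it was 0.64 to 1.36 unlesioned and 1.35 to 1.75 at 4dpl, which overlapped. Tyro3 against Mertk was 0.44 to 0.99 in control unlesioned and 0.11 to 0.21 in control 4dpl libraries, whereas Axl against Mertk was 0.88 to 1.26 and 0.82 to 0.91. Msr1 against Scarb1 was 0.24 to 1.27 and 1.61 to 3.01 in control, and 0.22 to 0.51 and 0.71 to 2.20 in mutant libraries. With 3 libraries per group no two-sided exact permutation test of such a ratio can go below p = 0.10, and none was run.

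**Figure D3:**
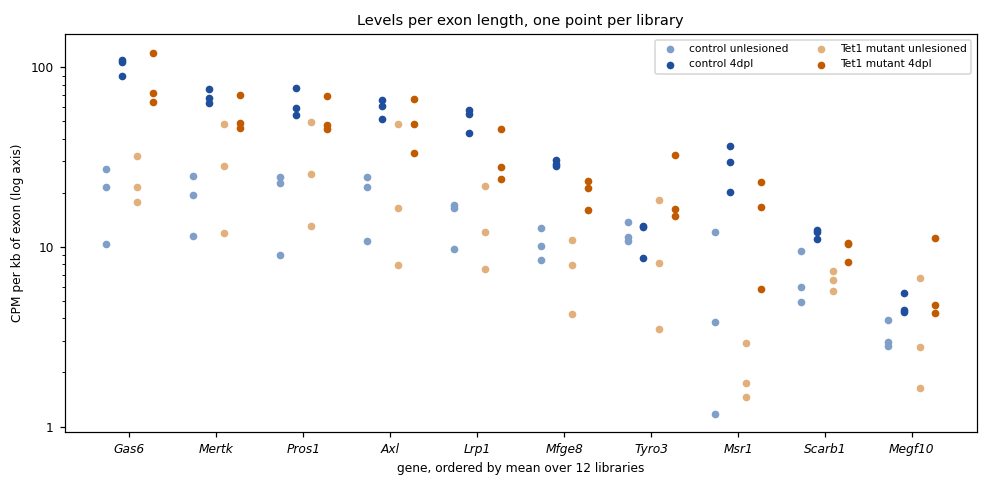
Level of each gene in CPM per kb of exon on a log axis, one point per library, coloured by group and ordered by the mean over 12 libraries. Control 4dpl points of Gas6 lie near 102 CPM per kb, while the Tyro3 control points stay near 12 in both conditions.

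To ask whether the genotype altered these levels, the libraries labelled Tet1 mutant were compared with control before and after lesion. None of the 10 genes was called in unlesioned cord, at 4dpl or for the interaction of genotype and lesion, and 0% of all genes were called in each comparison with edgeR. DESeq2 and limma with voom also called 0 of the 10. Over all genes DESeq2 on all libraries called 44 unlesioned, 229 at 4dpl and 0 for the interaction, and limma with voom 0, 34 and 0. At an unadjusted p under 0.05 the count was 1 of 10 unlesioned, 0 at 4dpl and 0 for the interaction, where 5.22%, 6.92% and 3.81% of all genes passed. The single gene was Msr1, at 7.5 to 76.8 CPM in control and 9.3 to 18.5 CPM in mutant unlesioned libraries, which overlapped. Its log2 difference was -1.48 (95% interval -2.87 to -0.10, edgeR adjusted p = 0.927). Leaving out single libraries moved this difference between -1.97 and -0.29.

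At 4dpl 8 of the 10 differences between mutant and control were below 0. Mfge8 and Scarb1 were lower in every mutant library than in every control library (5.44% of all genes were), and Tyro3 was higher (7.34% of all genes were). Their log2 differences were -0.53 ± 0.30, -0.30 ± 0.24 and 0.87 ± 0.46, with edgeR adjusted p of 0.817, 0.908 and 0.785. Lrp1 was at 765 to 1024 CPM in control and 425 to 806 CPM in libraries labelled mutant at 4dpl, with a log2 difference of -0.68 ± 0.38 (adjusted p = 0.817). The difference between the lesion responses was -0.99 for Mertk (95% interval -2.23 to 0.24) and 1.13 for Tyro3 (-0.25 to 2.52), the smallest unadjusted p-values of the 10 genes for the interaction, 0.106 and 0.101. For Mfge8 it was -0.08 (-0.98 to 0.81) and for Gas6 -0.52 (-1.58 to 0.53). For 8 of the 10 genes the interval reached past 1 log2 unit in at least one direction, so that a difference between genotypes of that size lay within the error of these libraries.

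Most of the 10 genes were high, or low, in the same libraries of a group. Compared with its group mean on the log2 scale, control unlesioned library 2 was above the mean for 0 of the 10 genes and libraries 1 and 3 for 8 each. Among mutant unlesioned libraries, number 1 was above for 9 genes with a median deviation of 0.87, and number 2 for 1 gene with a median deviation of -0.84. Mutant 4dpl library 1 was above for 8, and libraries 2 and 3, of high and low neutrophil marker level, for 3 each. The control 4dpl libraries were above for 5, 5 and 6. Whether all genes tested were high or low in the same libraries was not tested.

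Both unlesioned libraries numbered 2, low for most of the 10 genes, were also low for microglia markers and high for neutrophil markers. The sum of 8 microglia markers, all detected in all libraries, was 2414 CPM in control unlesioned library 2 and 2934 CPM in mutant unlesioned library 2, against 4652 and 4683 CPM, and 8778 and 5243 CPM, in the other libraries of these groups. At 4dpl it was 8041 to 13349 CPM in control and 8173 to 12200 CPM in libraries labelled mutant, so that its mean was 2.76 and 1.77 times the unlesioned mean. On average over genotypes 7 of these 8 markers rose. The sum of 5 neutrophil markers went from 33190 to 71152 CPM in control unlesioned to 18877 to 22449 CPM in control 4dpl libraries, and from 18683 to 75973 CPM to 13903 to 69694 CPM in libraries labelled mutant. The sum of 7 astrocyte markers was 192 to 216 CPM and 324 to 603 CPM in the control groups, and 230 to 293 CPM and 331 to 613 CPM in the mutant groups. The sum of 7 markers of infiltrating macrophages and monocytes was 11242 to 23686 CPM in control unlesioned and 17631 to 25843 CPM in control 4dpl libraries, and 8063 to 24796 CPM and 12510 to 31037 CPM in libraries labelled mutant. In control 1 of these 7 rose and 1 fell. Ms4a7, a marker of macrophages in this list, was at 2.9 to 47.8 CPM in control unlesioned and 120 to 190 CPM in control 4dpl libraries. In those labelled mutant it was at 2.4 to 9.2 CPM and 36.8 to 103 CPM. In control 4 of the 7 markers had log2 differences above 0. Others went down: the control mean went from 1021 to 432 CPM for Ly6c2, from 254 to 93.9 CPM for Plac8 and from 2606 to 1619 CPM for Chil3. The sum of 4 oligodendrocyte progenitor markers was 42.7 to 56.2 CPM and 115 to 262 CPM in the control groups, with the mean 3.76 times as high at 4dpl and 3 of the 4 called higher, and 63.6 to 203 CPM and 116 to 178 CPM in the mutant groups, with 0 called. The sum of 8 oligodendrocyte markers was 16502 to 20760 CPM and 23650 to 34597 CPM in the control groups. In the mutant groups it was 14630 to 28490 CPM and 25825 to 69260 CPM. The sum of 5 markers of B and T lymphocytes was 98.3 to 353 CPM and 63.3 to 149 CPM in the control groups. In the mutant groups it was 110 to 402 CPM and 111 to 187 CPM. The part of these shifts in the values of the 10 genes was not tested.

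**Figure D4:**
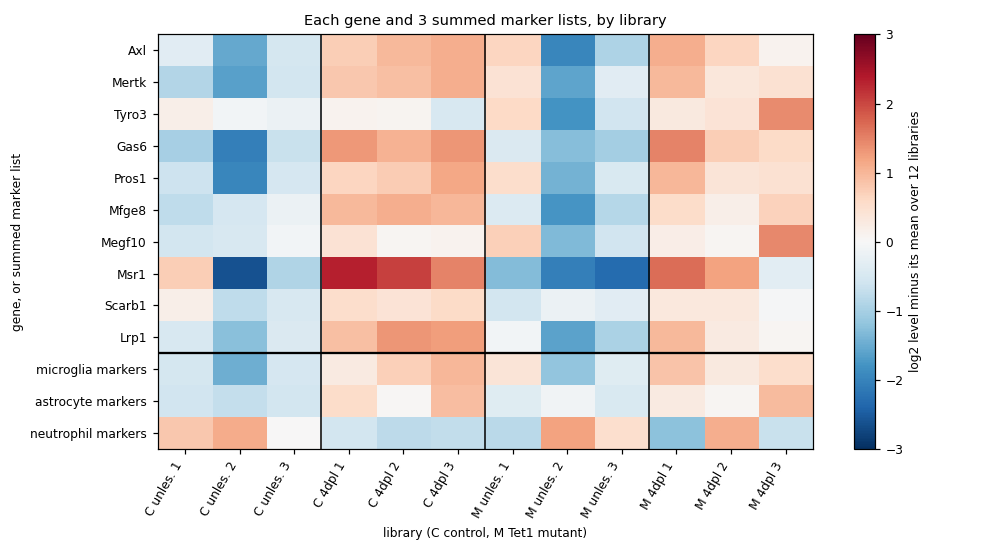
Log2 level of each gene (top) and of the summed microglia, astrocyte and neutrophil markers (bottom) in each library, minus its mean over the 12 libraries; red is above and blue below the mean. Control unlesioned library 2 and mutant unlesioned library 2 are blue for nearly all 10 genes and for microglia markers and red for neutrophil markers.

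Set against the microglia marker sum of the same library, only some of the 10 genes were higher after lesion. Gas6 was at 1.10 to 1.48% of that sum in control unlesioned and 2.08 to 3.41% in control 4dpl libraries, and at 0.93 to 1.54% and 1.70 to 2.53% in libraries labelled mutant, without overlap in either. Mertk was at 1.82 to 2.29% and 2.47 to 3.39% in control, and overlapped in libraries labelled mutant. Lrp1 was at 6.26 to 7.12% and 7.30 to 9.51% in control, also without overlap. In control 4 genes were higher at 4dpl in every library on this scale, 1 was lower (Tyro3, 1.43 to 2.92% against 0.40 to 1.01%) and 5 overlapped. In libraries labelled mutant 3 were higher and 7 overlapped. The share of all genes that separated on this scale was not computed. Against the astrocyte marker sum 4 genes were higher in control, and against the oligodendrocyte marker sum 6 were, Gas6 included in both. In libraries labelled mutant all 10 genes overlapped on both of these scales. Gas6 was there at 15.4 to 33.2% of the astrocyte sum unlesioned and 26.7 to 81.2% at 4dpl.

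Related genes of uptake were taken from 5 lists, described here over both genotypes, where 14.2% of all genes tested were called higher. Of 17 other phosphatidylserine receptors and bridges 6 rose and 1 fell, with a median log2 difference of 0.64 against -0.28 over all genes. Stab1, a scavenger receptor that binds phosphatidylserine, was at 42.8 to 106 CPM in control unlesioned and 383 to 414 CPM in control 4dpl libraries, with an averaged log2 difference of 2.29 ± 0.38 (edgeR adjusted p = 0.0027). Havcr2, which encodes TIM-3, and Pear1, a relative of Megf10, rose by 1.46 and 0.95 on the log2 scale. Stab2 fell by 1.26 on the log2 scale from a low level of 2.4 to 4.4 CPM in the 6 unlesioned libraries. In control alone 3 of the 17 genes rose, against 5.12% of all genes called higher.

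Of 16 tested scavenger and lipoprotein receptor genes, out of 17 listed, 5 rose and none fell, with a median of 0.31. Colec12, a scavenger receptor with a lectin domain, was at 2.5 to 6.6 CPM in control unlesioned and 20.0 to 40.8 CPM in control 4dpl libraries, with an averaged log2 difference of 2.50 ± 0.29. Lrpap1, the chaperone of LRP1 and its relatives, and Scarb2, a lysosomal membrane protein, rose by 1.25 and 1.03. Of 17 genes of the engulfment machinery 6 rose, with a median of 0.40. Abca1, the cholesterol exporter that acts downstream of uptake, had a log2 difference of 2.03 ± 0.33 and was at 37.2 to 105 CPM and 344 to 377 CPM in the control groups. Elmo2 and Vav1, which relay signals to the Rac GTPase, rose by 0.81 and 0.75.

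Of 14 tested regulators of TAM receptors and ligands, out of 15 listed, 9 rose and none fell, with a median of 0.83. Ggcx, the carboxylase that GAS6 and protein S need to bind phosphatidylserine, rose by 1.30 ± 0.23 on the log2 scale, Rxra, a nuclear receptor partner, by 0.90 ± 0.15 and Ifnar1, an interferon receptor chain that partners AXL, by 1.06 ± 0.20. Of 14 genes for find-me and do-not-eat-me signals 6 rose, with a median of 0.68. S1pr1 and P2ry6, receptors for sphingosine 1-phosphate and for nucleotides, rose by 1.77 and 1.35, and Cd22, an inhibitory receptor for sialic acid, by 1.74. P2ry12 and Cx3cr1, which are in this list, are also among the microglia markers. In control alone 5 of the 16 scavenger and lipoprotein receptor genes and 1 of the 17 genes of the engulfment machinery rose. So did 6 of the 14 regulators and 4 of the 14 genes for find-me and do-not-eat-me signals. With edgeR none of the genes of the 5 lists was called in libraries labelled mutant alone or in a comparison between genotypes.

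**Figure D5:**
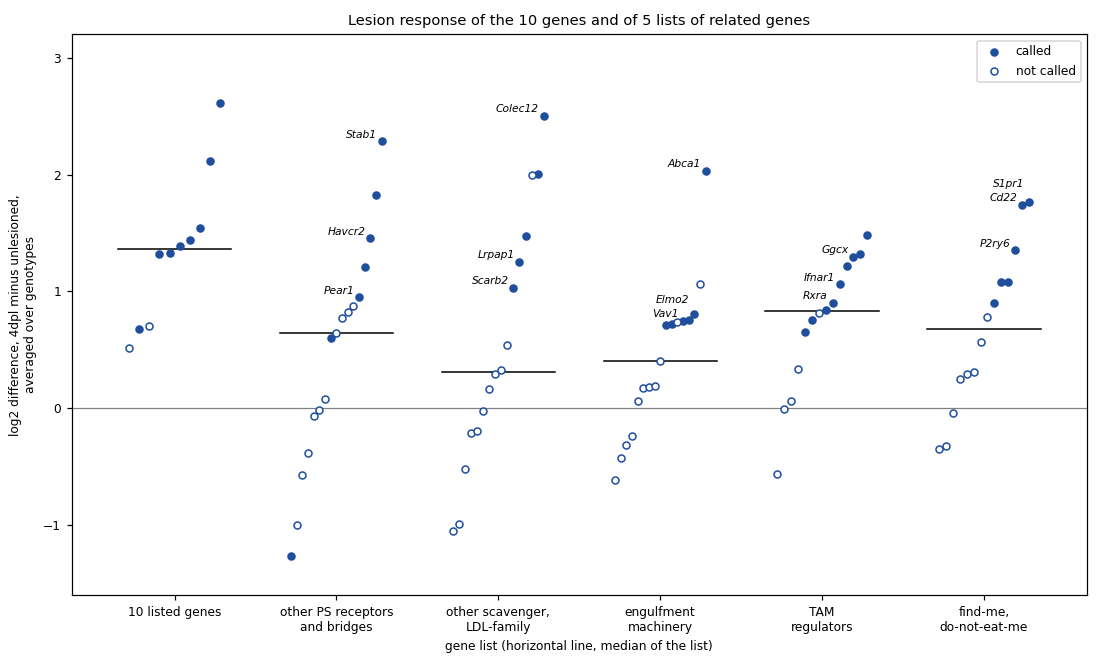
Averaged log2 difference between 4dpl and unlesioned for the 10 genes and for 5 lists of related genes, one point per gene, filled where the test was passed, with a line at each list's median and the 3 genes of smallest p named. The 10 genes have a median of 1.36, and the lists have medians from 0.31 to 0.83.

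Similarity between expression profiles was measured as the root mean square difference of log2 levels over the 12 libraries, each gene first centred on its own mean, among 13615 genes. Mertk and Pros1, a receptor and a ligand of the same pair, differed by 0.15, and Pros1 was the nearest of all genes to Mertk, followed by Pald1 and Jam2. The median difference to all genes was 0.84 for both. Pros1 itself lay near Golm1, at 0.12. Gas6 lay nearest to Abcc3 at 0.14, then to Npl and Gpx3. Axl was nearest to Mpeg1, Htra3 and Plxnb2, at 0.25 to 0.26, Lrp1 to Fmn1, Grn and Gusb, at 0.14 to 0.17, and Mfge8 to Ctsa, C1qb and Klk8, at 0.22 to 0.25. The nearest to Msr1 were Dab2, Gm42793 and Myof, at 0.27 to 0.36. Tyro3 was nearest to Insc, Car14 and Plekhh1, at 0.15 to 0.19, and Megf10 to Pcyt1b, Dixdc1 and Ermn, the last an oligodendrocyte marker, at 0.17 to 0.18. Scarb1 was nearest to Ifnar2, Sumo3 and Nfe2l2, at 0.08 to 0.10. The points share libraries and cell makeup, and the ranking is a description.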

How the data were processed

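RNA of Percoll-enriched spinal cord cells was sequenced as paired-end reads in 12 libraries. The authors assigned uniquely placed reads to Ensembl exons of GRCm38 by featureCounts, summed them per gene and deposited these raw counts. Their methods name BWA for alignment, whereas the submitters' processing notes name STAR, mm10 and DESeq2 1.2.5; the counting is not stated to use strand, so reads of antisense neighbours cannot be told apart. Reads from repeats or near-identical copies were left out by counting unique alignments, which can lower genes with such copies.

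The deposited counts, 34805086 to 67251544 per library, entered edgeR 4.0.16 under R 4.3.3. Counting error is small at this depth, and the 3 libraries per group limit the precision. Genes were kept with filterByExpr, which left 31109 of 54838, and libraries were scaled by TMM. A model of 4 group means was fitted to all 12 libraries with glmQLFit and tested with glmQLFTest, and genes were called at p under 0.01 and Benjamini-Hochberg adjusted p under 0.05. SE was taken from the log2 difference and the F statistic. The script was tested on simulated data. CPM per kb used the exon length in the count files.

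Symbols were given to 54723 genes by Ensembl identifier. The 10 genes, the related lists and the marker lists were chosen with earlier results of these data known. Stab2, Tmem255b and the marker genes P2ry12, Cx3cr1, Ms4a7, Ly6c2, Plac8 and Chil3 were named after their values were seen. The other named genes are the 10, Tet1, Olig1, the 3 smallest p-values of each list in the averaged comparison and the 3 nearest profiles of each of the 10. Some neighbours picked by this rule are not reported here. The alternatives were RLE size factors, other filters, DESeq2 1.42.0, limma 3.58.1 with voom, edgeR without its legacy setting, fits to the groups compared, an adjusted p of 0.1, a replicate block and leaving out each library. Leaving out the 3 libraries of highest neutrophil marker level together was added after seeing the data. Promoter sequences came from RefSeq on GRCm38.p6.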

Additional observations from a re-analysis of the deposited data

How the results depend on the processing

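Over the 60 comparisons of single genes and their 1340 alternatives, 1205 kept direction and side of the threshold, 38 lost the call, 66 gained it and 31 changed sign; 3 of those 31 were lesion responses, all of Tyro3 in control.

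The number of the 10 genes called in control was 6, and 5 to 8 with other normalization, filters, tools or thresholds, but 0 without the 3 libraries of highest neutrophil marker level and 0 to 8 leaving out single libraries. In the mutant it was 0, against 3 with no filter, 4 with DESeq2 on all libraries, 3 with DESeq2 on the groups compared, 8 with voom, 4 with edgeR without its legacy setting, 2 with the groups compared only, 4 at an adjusted p of 0.1, and 0 to 9 leaving out single libraries. The averaged count was 8, with 6 to 10 over all alternatives, and the 3 counts between genotypes were 0 in all alternatives. Over all genes, calls in control were 3150, with 1 to 9663 over the alternatives, in the mutant 42 with 0 to 6800, averaged 10194 with 3591 to 16371, unlesioned between genotypes 0 with 0 to 44 and at 4dpl 0 with 0 to 616. The cause was not tested.

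Signs changed for these log2 differences. Tyro3 in control was 0.065 with no filter and -0.13 to 0.17 without single libraries. Between genotypes unlesioned, without single libraries, Axl was -0.65 to 0.78, Tyro3 -1.04 to 0.15, Gas6 -0.041 to 0.57, Megf10 -0.56 to 0.56, Scarb1 -0.25 to 0.26 and Lrp1 -0.57 to 0.24; with voom Megf10 was -0.091, Scarb1 0.22 and Lrp1 0.025, with at least 10 counts per library Scarb1 was 0.011, and without the 3 libraries Tyro3 was 0.12 and Lrp1 0.020. Megf10 at 4dpl was -0.078 to 0.74. For the interaction Axl was -1.05 to 0.38, Mfge8 -0.38 to 0.27, Megf10 -0.28 to 1.06 and Msr1 -0.64 to 1.04, with Msr1 at -0.52 with voom.

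With the replicate block by label number 8 of the 10 genes were called in control and 0 in the mutant, and the Msr1 interaction was -0.078. Over all genes that fit called 3844 in control and 4 in the mutant. Same-numbered libraries deviated together with correlations of 0.19, 0.05 and 0.19 between conditions in control, -0.03, 0.07 and -0.07 in the mutant, 0.15, -0.03 and 0.22 between genotypes unlesioned and -0.03, 0.06 and -0.05 at 4dpl. Not every correlation passed 0.1 in any of these comparisons, so the numbers were not taken to pair the libraries. In control every unlesioned library correlated best with the 4dpl library of its own label number, and in the mutant 1 of 3 did. This is a hint from the data and not from the design. The paper numbers the control 4dpl and the mutant unlesioned libraries differently from the deposited labels. A shared label number therefore need not mean a shared mouse, in these correlations or in the replicate block.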
